A study of Mus musculus with 12 samples.

Results

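The 10 genes described here mark the epithelial and the mesenchymal end of the epithelial-mesenchymal transition (EMT) and a transitional state of alveolar epithelial cells. They are Cdh1, Cdh2, Vim, Snai1, Snai2, Zeb1, Zeb2, Epcam, Krt8 and Krt18, taken by name from a table of 34745 genes, where each name had 1 row. RNA was sequenced from MLE-12 cells, a mouse alveolar type II (AT II) epithelial line that came from a lung tumour of mice carrying a viral large T antigen under the human surfactant protein C promoter, so that all results belong to 1 transformed line. The 12 libraries formed 4 groups of 3, all taken at 24 h. The LPS group received 100 ng/mL lipopolysaccharide in 21% oxygen, and the LPS + M2-Exo group received in addition 10 µg/mL of exosomes (M2-Exo) from the mouse alveolar macrophage line MH-S after treatment with IL-4. The Hyp group was kept in 85% oxygen without LPS, and the Hyp + M2-Exo group had 85% oxygen and the same 10 µg/mL of M2-Exo. By the methods M2-Exo followed the LPS or hyperoxia treatment, and the time between them is not given. No untreated group was analysed here, so no value below is a change from healthy cells. Hyp and LPS differ in oxygen and in LPS at once, and these cannot be told apart from each other or from any difference between the cultures. The labels number the libraries and do not say that they came from separate cultures, so p-values measure the spread between libraries.

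In EMT, epithelial cells loosen their junctions and take on the shape and motility of mesenchymal cells. E-cadherin (Cdh1) and EpCAM (Epcam) hold epithelial neighbours together, and keratins 8 and 18 (Krt8, Krt18) pair with each other to build the intermediate filaments of simple epithelia. N-cadherin (Cdh2) and vimentin (Vim) are their mesenchymal counterparts. Snail (Snai1), Slug (Snai2), Zeb1 and Zeb2 are zinc finger repressors best known for binding E-box sequences in the Cdh1 promoter. In the injured lung, AT II cells on the way to becoming alveolar type I cells pass through a transitional state that is known for high Krt8.

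The deposited table placed the genes on GRCm38. Cdh1 lies at chr8:106603351-106670246, Epcam at chr17:87635979-87651106, Vim at chr2:13573927-13582826, Snai1 at chr2:167538195-167542814, Zeb2 at chr2:44983632-45117395 and Snai2 at chr16:14705852-14709395. Krt8 at chr15:101996711-102004342 and Krt18 at chr15:102028216-102032026 are neighbours that point away from each other, with 23873 bases between them. 

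RefSeq promoter windows of GRCm38.p6 were at hand for 6 of the 10 genes, 9 windows in all since Zeb2 had 4. The E-box that Snail and Zeb factors recognise, CAGGTG or its reverse complement CACCTG, was searched in the 250 bases before each start. It was found in 4 of these 9 windows, against 17.2% of all 32851 windows. Epcam held 2 copies, Krt8, Krt18 and Snai1 held 1 each, and the windows of Vim and Zeb2 held none. The 3 epithelial promoters are shown because their genes had such different levels. Letters run 5′ to 3′ on the gene's own strand, and capitals mark the E-box.
Krt8: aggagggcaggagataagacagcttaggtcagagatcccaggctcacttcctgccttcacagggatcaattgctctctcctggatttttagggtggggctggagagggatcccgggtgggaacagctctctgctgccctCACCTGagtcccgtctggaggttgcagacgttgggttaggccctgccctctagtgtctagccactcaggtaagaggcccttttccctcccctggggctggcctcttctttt
Krt18: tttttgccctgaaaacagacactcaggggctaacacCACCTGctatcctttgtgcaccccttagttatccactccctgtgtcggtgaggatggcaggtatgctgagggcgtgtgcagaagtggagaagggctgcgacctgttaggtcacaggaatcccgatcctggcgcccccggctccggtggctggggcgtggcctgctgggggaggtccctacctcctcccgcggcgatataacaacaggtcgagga
Epcam: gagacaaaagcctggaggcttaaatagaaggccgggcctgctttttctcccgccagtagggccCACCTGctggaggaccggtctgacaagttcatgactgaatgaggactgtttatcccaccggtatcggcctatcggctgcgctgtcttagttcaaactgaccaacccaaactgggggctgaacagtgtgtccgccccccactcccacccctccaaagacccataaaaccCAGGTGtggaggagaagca
The windows are chr15:102004343-102004592 on the minus strand for Krt8, chr15:102027966-102028215 on the plus strand for Krt18 and chr17:87635729-87635978 on the plus strand for Epcam. The E-box began 111 bases before the start of Krt8 and 214 bases before that of Krt18, and the pair in Epcam began 187 and 19 bases before the start. A match of letters is a description and shows no binding.

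Total counts per library ran from 16021833 to 24074616. They were 18700207 to 19185116 in LPS and 16021833 to 18505941 in LPS + M2-Exo. They were 22035335 to 24074616 in Hyp and 20231632 to 23414010 in Hyp + M2-Exo. Every hyperoxia library was thus deeper than every LPS library, so raw reads of the 2 injuries are not on the same scale. The AT II label was met in part: surfactant protein C (Sftpc) was read at a mean of 14.5 to 27.4 FPKM by group and the lipid transporter Abca3 at 12.9 to 17.6 FPKM, while Sftpa1 and Sftpd had at most 1 read in any library. Of 20 macrophage genes, 14 or 15 passed the filter on low counts, depending on the comparison. Their summed level was 472 to 524 CPM (counts scaled to library size) in LPS, 377 to 427 in LPS + M2-Exo, 129 to 133 in Hyp and 101 to 148 in Hyp + M2-Exo. Retnla and Chil3 had no reads in any library, and Arg1, Siglecf and Cd163 had at most 3. In bulk RNA, fewer cells of a type and less RNA per cell cannot be told apart.

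The 10 genes had very unequal levels. Levels between genes were compared on the authors' FPKM scale, which corrects for length. Krt8 was highest, with 74.2 to 86.5 FPKM over the 12 libraries. Vim followed with 38.9 to 58.9 FPKM and Cdh2 with 10.4 to 12.5 FPKM. Zeb1 at 1.76 to 3.16 FPKM and Zeb2 at 1.74 to 2.25 FPKM lay in the same range, next to Snai1 at 1.11 to 2.24 FPKM. Genes of the mesenchymal and of the epithelial end were thus both read in every library. Cdh1 lay between 0.539 and 3.27 FPKM. Krt18 had 0 to 4 reads in a library, or at most 0.178 FPKM, and Epcam had 6 to 21 reads, or 0.135 to 0.556 FPKM.

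**Figure D1:**
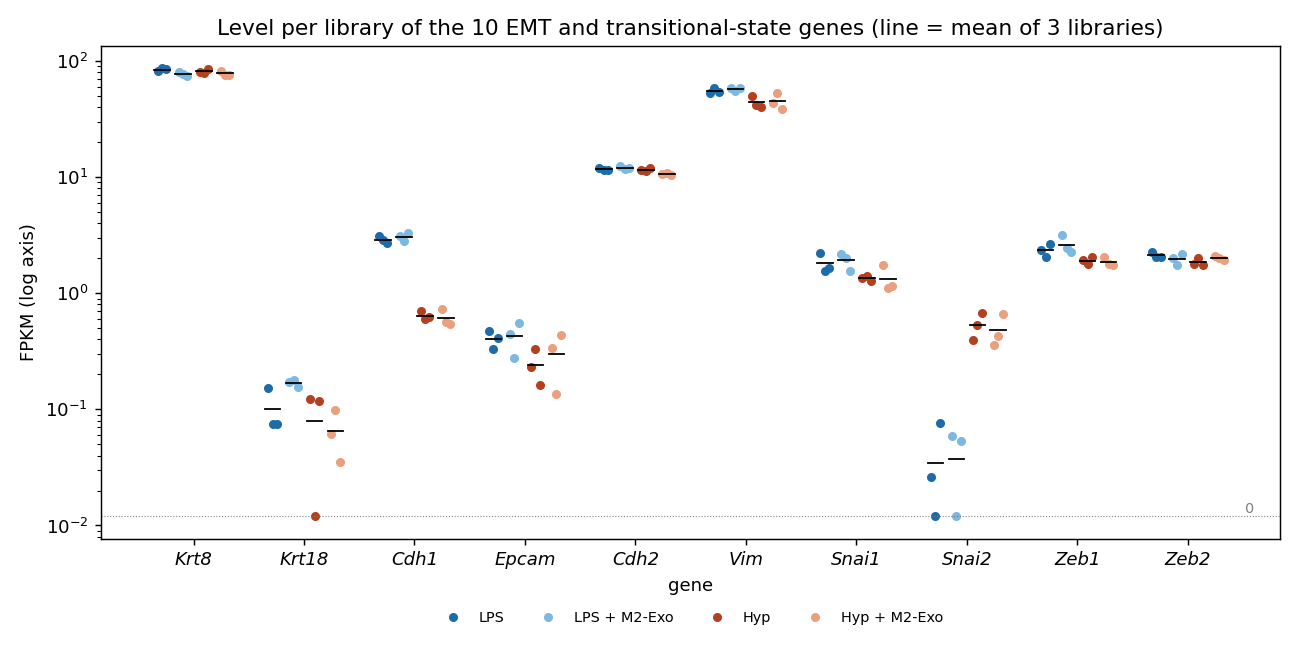
FPKM of the 10 genes in each of the 12 libraries on a log axis, coloured by group, with a line at the mean of 3 libraries and libraries with no reads set on the dotted line marked 0. Krt8, Vim and Cdh2 sit above 10 FPKM in all 12 libraries, while Cdh1 and Snai2 separate the LPS groups from the Hyp groups in opposite directions.

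M2-Exo moved none of the 10 genes past the threshold, in either injury. In hyperoxia 9 of the 10 were tested, all but Krt18, and edgeR called 0 of them at an adjusted p under 0.05, where 0.101% of all 13815 genes were called. In LPS 8 were tested, all but Krt18 and Snai2, and edgeR called 0 again, against 0.187% of 13353 genes. At an unadjusted p under 0.05 there was 1 gene in each injury, against 8.48% of all genes tested in hyperoxia and 11.1% in LPS. DESeq2, run on the same 9 and 8 genes, also called 0 of them. Of all genes it called 37 of 13815 in hyperoxia and 130 of 13353 in LPS.

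The gene with an unadjusted p under 0.05 in hyperoxia was Cdh2. Its 3 Hyp libraries had 106.6, 104.7 and 112.4 CPM, and its 3 Hyp + M2-Exo libraries had 100.3, 101.8 and 97.35 CPM. All 3 libraries with M2-Exo were therefore below all 3 without it, a separation in either direction that 16% of all genes tested had. The log2 difference was -0.12 (SE 0.041, unadjusted p = 0.0221, adjusted p = 0.566 by edgeR). In LPS the same gene had a log2 difference of 0.06, with a 95% interval from -0.03 to 0.15. The difference between the M2-Exo effects, tested over all 12 libraries, was -0.17 on the log2 scale (unadjusted p = 0.00888, adjusted p = 0.368). No other of the 9 genes tested had an unadjusted p under 0.05 for that difference, against 9.78% of all genes. At an adjusted p under 0.05 there were 0 of the 9 by edgeR, against 0.0352% of all genes. By DESeq2 there were 0 of the 9 as well, against 70 of all 14187 genes.

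In LPS it was Krt8. The LPS libraries had 151.7, 160.2 and 158.6 CPM, and the LPS + M2-Exo libraries had 150.1, 145 and 138.4 CPM. The groups did not overlap, as for 17.2% of all genes tested, and the lowest LPS library lay close to the highest LPS + M2-Exo library. The log2 difference was -0.12 (SE 0.043, adjusted p = 0.372). In hyperoxia Krt8 had a log2 difference of -0.05, with a 95% interval from -0.16 to 0.05.

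Cdh1 gave no detectable difference with M2-Exo. In hyperoxia it had 3.718, 3.201 and 3.327 CPM without M2-Exo and 3.918, 2.993 and 2.873 CPM with it, and the groups overlapped. The 95% interval of the ratio ran from 0.735 to 1.24, at 60 to 94 reads a library. In LPS the libraries held 249 to 333 reads, and the interval of the ratio ran from 0.933 to 1.23. For Vim the intervals were 0.847 to 1.24 in hyperoxia and 0.962 to 1.12 in LPS.

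The repressors were less tightly measured where reads were few. For Zeb1 the ratio with against without M2-Exo lay between 0.856 and 1.11 in hyperoxia and between 0.892 and 1.40 in LPS, and for Zeb2 between 0.975 and 1.21 and between 0.832 and 1.07. Snai1, with 38 to 68 reads, had intervals of 0.715 to 1.41 in hyperoxia and 0.764 to 1.47 in LPS. Snai2 in hyperoxia allowed 0.542 to 1.46, and Epcam allowed 0.60 to 2.61 in hyperoxia and 0.638 to 1.78 in LPS. With 6 to 21 reads a library, these data do not exclude a change of Epcam within those intervals.

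**Figure D2:**
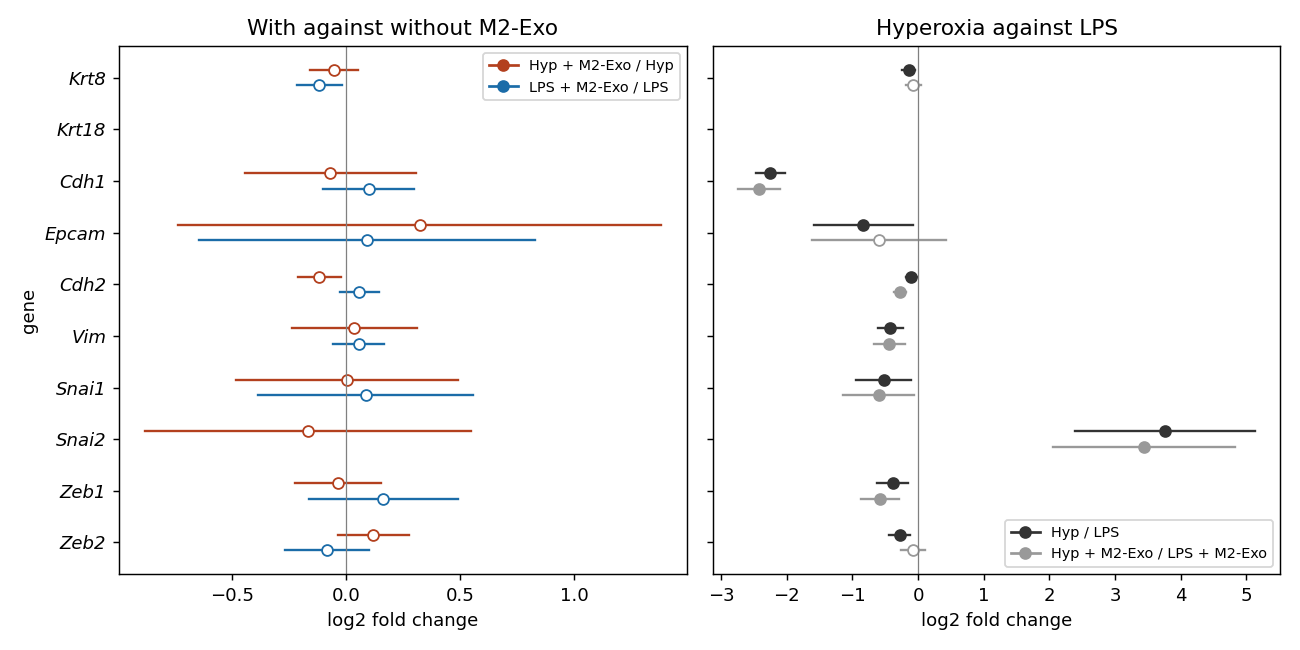
Log2 fold change of each tested gene, with a 95% interval as the line, for M2-Exo in each injury (left) and for hyperoxia against LPS without and with M2-Exo (right). Filled points have an adjusted p under 0.05 by edgeR, and all points on the left are open. The axes differ in scale, and the Snai2 values on the right rest on LPS groups with at most 3 reads a library.

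Hyperoxia and LPS gave different levels of these genes. Of the 9 genes tested, edgeR called all 9, with 8 lower and 1 higher in Hyp than in LPS. The 1 higher, here and with M2-Exo, was Snai2, which passed the filter on low counts only through its Hyp libraries. The count must be read against the background, since 75.8% of all 13805 genes were called in this comparison. The groups did not overlap for any of the 9, as for 78.7% of all genes. The median log2 difference of the 9 was -0.39, against 0.00906 over all genes. With M2-Exo in both groups 6 of 9 were called, 5 lower and 1 higher, against 73.7% of 13660 genes, and the median of the 9 was -0.44. The groups did not overlap for 5 of them, against 77% of all genes. The 3 that missed the threshold there were Zeb2 (-0.07), Epcam (-0.60) and Krt8 (-0.07 on the log2 scale), with adjusted p-values of 0.447, 0.25 and 0.201. Both comparisons used different libraries of the same 2 injuries.

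Cdh1 had the largest fall of the 10 genes. The 3 LPS libraries held 317, 300 and 287 reads, or 17.42, 16.13 and 15.47 CPM. The 3 Hyp libraries held 90, 73 and 83 reads, or 3.718, 3.201 and 3.327 CPM. Every Hyp library was far below every LPS library, and the E-cadherin message was 4.77-fold lower (log2 -2.25, SE 0.095, adjusted p = 3.19e-07). With M2-Exo the reads were 286, 249 and 333 in LPS and 94, 67 and 60 in Hyp, 5.34-fold lower (log2 -2.42, adjusted p = 1.65e-06). A change of at least 4-fold with an adjusted p under 0.05 was met by 7.68% of all genes without M2-Exo and by 7.2% with it.

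Snai2 went the other way. Slug had 1, 0 and 3 reads in the LPS libraries and 2, 0 and 2 in the LPS + M2-Exo libraries. It had 19, 24 and 33 reads in Hyp and 17, 19 and 27 in Hyp + M2-Exo. The LPS groups were at the limit of counting and all 6 Hyp libraries were above it. The mean of Snai2 in Hyp was 6.39-fold a floor of 3 reads a library in LPS. With M2-Exo in both groups it was 4.89-fold that floor. Snai2 passed the filter on low counts only through its Hyp libraries, so a call could come out only as higher there. Its edgeR calls are therefore no evidence beyond the reads. The 95% interval of the ratio of Hyp to LPS began at 5.27 without M2-Exo and at 4.18 with it. Even so it was read at only 0.357 to 0.675 FPKM in the Hyp groups.

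N-cadherin did not rise where E-cadherin was lower. Cdh2 had 118.5, 114.5 and 114.3 CPM in LPS and 106.6, 104.7 and 112.4 CPM in Hyp, which was slightly lower (log2 -0.10, SE 0.038, adjusted p = 0.0413). This call was lost in 10 of 13 other settings, among them without each of the 6 libraries but Hyp replicate 3 (adjusted p up to 0.158). Scaling by library size alone left a log2 difference of -0.01 (adjusted p = 0.805). The groups also overlapped on the FPKM scale, where LPS lay between 11.5 and 12.0 and Hyp between 11.2 and 12.1. With M2-Exo the difference was clearer, with 124.1, 118.3 and 119.2 CPM in LPS + M2-Exo and 100.3, 101.8 and 97.35 CPM in Hyp + M2-Exo (log2 -0.27, adjusted p = 0.000453). The FPKM ratio of Cdh2 to Cdh1 was 4.05 ± 0.166 in LPS and 3.95 ± 0.269 in LPS + M2-Exo, and 18.1 ± 1.54 in Hyp and 17.8 ± 2.75 in Hyp + M2-Exo (mean ± SD, n = 3 each). The ratio rose through the fall of Cdh1.

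**Figure D3:**
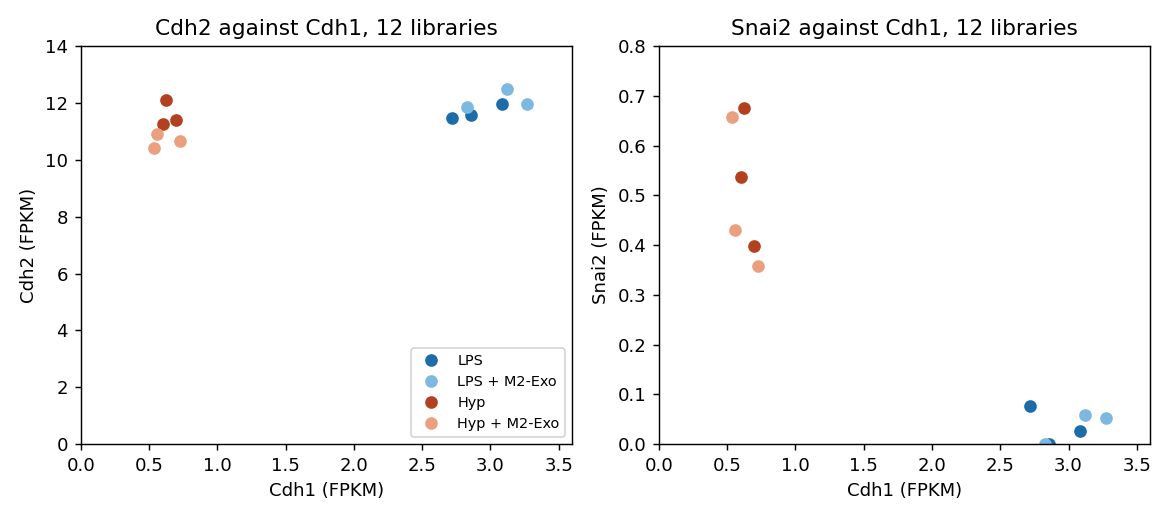
FPKM of Cdh2 (left) and of Snai2 (right) against FPKM of Cdh1 in the 12 libraries, coloured by group, with axes from 0. The Hyp libraries lie at 0.539 to 0.73 FPKM of Cdh1 and the LPS libraries at 2.72 to 3.27, while Cdh2 stays between 10.4 and 12.5 FPKM in all of them.

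Vimentin was lower in hyperoxia too. Vim had 421.8, 471.8 and 441 CPM in LPS and 375.7, 317.4 and 303.1 CPM in Hyp (log2 -0.42, SE 0.08, adjusted p = 0.00162). With M2-Exo the values were 472.7, 442.8 and 472 CPM in LPS + M2-Exo and 328.7, 402.5 and 294.4 CPM in Hyp + M2-Exo (log2 -0.44, adjusted p = 0.00449). In both comparisons all Hyp libraries lay below all LPS libraries.

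Of the other repressors, none rose with Snai2. Zeb1 had 39.61, 34.51 and 45.45 CPM in LPS and 30.78, 28.33 and 32.31 CPM in Hyp (log2 -0.39, adjusted p = 0.00939), and it was lower by a log2 difference of -0.58 with M2-Exo (adjusted p = 0.0036). Zeb2 had 78.79, 71.33 and 72.52 CPM in LPS against 59.49, 66.88 and 57.36 CPM in Hyp (log2 -0.28, adjusted p = 0.00623). With M2-Exo the Zeb2 groups overlapped, and scaling by library size alone turned its difference from -0.07 to 0.02. Snai1 had 3.736, 2.58 and 2.75 CPM in LPS and 2.107, 2.193 and 2.004 CPM in Hyp (log2 -0.52, adjusted p = 0.0296). Its groups overlapped with M2-Exo (log2 -0.60, adjusted p = 0.0465), and 6 of 13 other settings lost the call in either comparison. Without M2-Exo these included leaving out LPS replicate 1 (adjusted p = 0.10) or any Hyp library (0.0574 to 0.0826). With M2-Exo they included leaving out LPS + M2-Exo replicate 1 or 2 or Hyp + M2-Exo replicate 2 or 3 (adjusted p 0.106 to 0.139). Reads from the strand opposite Zeb2, where Zeb2os lies, and from Gm10125 opposite Zeb1 and Gm15485 opposite Cdh2 cannot be told apart from these genes unless the counting used strand, which is not given in the sources used here.

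Epcam had 18, 13 and 16 reads in LPS and 11, 15 and 8 in Hyp (log2 -0.84, SE 0.32, adjusted p = 0.0449), and 10 of 12 other settings lost this call, among them without each library but Hyp replicate 2 (adjusted p 0.0519 to 0.141). Krt8 had 151.7, 160.2 and 158.6 CPM in LPS and 139.7, 138 and 147.9 CPM in Hyp (log2 -0.14, adjusted p = 0.0115), but scaling by library size alone left -0.05 (adjusted p = 0.238), and the FPKM ranges overlapped. With M2-Exo in both groups the difference of -0.07 turned to 0.02 under that scaling. Krt8 was therefore the most abundant of the 10 genes and among the least moved. A transcript of the Krt8-ps pseudogene matched Krt8 at 98.6% over 941 bases and had no row of its own, so reads from it could be lost or counted as Krt8.

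Krt18 was below the filter in each comparison. Its reads were 4, 2 and 2 in LPS, 4, 4 and 4 in LPS + M2-Exo, 4, 0 and 4 in Hyp and 2, 3 and 1 in Hyp + M2-Exo. All 3 LPS + M2-Exo libraries held 4 reads, and so did LPS replicate 1. They lay above all LPS libraries only after scaling to CPM, with 0.2234 against 0.2198 CPM at the closest. All Hyp + M2-Exo libraries lay below them. With so few reads the gene was not tested, and no fold change is given. No transcript of another gene matched Krt18 at 95% or more over 100 bases, and the closest, the pseudogene Gm5200, matched at 90.5%. The keratin with the highest level was Krt19, another keratin of simple epithelia, which rose from 500 ± 20.9 CPM in LPS to 739 ± 5.92 CPM in Hyp (SD, n = 3, log2 0.56, adjusted p = 3.17e-06). It was read at 208 to 328 FPKM by group mean, above Krt8 in each group.

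By mean CPM both LPS groups ranked above both Hyp groups for every gene but Snai2, although for Krt8 and Zeb2 scaling by library size alone turned the pair with M2-Exo. The ranges separated for fewer genes. Of all genes tested, 78.7% had no overlap between the injuries without M2-Exo and 77% had none with it. The share of all genes separated over all 4 groups was not computed. For Cdh1, Vim and Zeb1 both LPS groups lay above both Hyp groups without overlap, and within each injury the groups with and without M2-Exo overlapped. Snai2 had the reverse order. For Snai1, Zeb2 and Epcam each group overlapped its neighbour in the order. For Cdh2 the Hyp + M2-Exo group lay below the Hyp group, which lay below both LPS groups. Krt8 was highest in LPS, and its other 3 groups overlapped in turn. Krt18 had at most 4 reads in any library.

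Among 9326 genes of at least 10 CPM, the 5 whose pattern over the 12 libraries came closest to that of Cdh1 were Podxl, Mex3a, Ptprb, Ltbp3 and Slc39a10. The root mean square difference of their centred log2 CPM from Cdh1 was 0.086 to 0.111, where Cdh1 itself varied with an SD of 1.22. Podxl, which encodes the sialomucin podocalyxin, had 722 CPM in LPS, 770 in LPS + M2-Exo, 149 in Hyp and 147 in Hyp + M2-Exo. These points share libraries, and the likeness is a description.

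Partners of the 10 genes were followed through lists chosen with earlier results known. The 11 lists held 177 other genes. In the M2-Exo comparisons edgeR called 0 of 134 of them tested in hyperoxia and 0 of 126 in LPS, with 9 and 24 at an unadjusted p under 0.05. Of all genes tested 0.101% and 0.187% were called, and 8.48% and 11.1% had an unadjusted p under 0.05. DESeq2 called 0 in hyperoxia and 6 in LPS, where it called 37 of all 13815 genes and 130 of all 13353. The 6, named here after their values were seen, were the macrophage genes Csf1r, Adgre1, Ptprc and Lyz2, all lower with M2-Exo, and the matrix genes Fn1 and Ctgf, both higher. For Ptprc, the pan-leukocyte phosphatase CD45, the log2 difference was -0.45 (adjusted p = 0.146 by edgeR and 0.00109 by DESeq2). For fibronectin (Fn1) it was 0.21 (adjusted p = 0.188 by edgeR and 0.02 by DESeq2). Whether M2-Exo acted differently in hyperoxia and in LPS was tested for 137 list genes. Of these edgeR called 0, against 0.0352% of all genes, with 17 at an unadjusted p under 0.05, against 9.78%. DESeq2 called 2, Fn1 and the collagen crosslinker Loxl2, where it called 70 of all 14187 genes.

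The cadherin partners were lower in hyperoxia, as Cdh1 was. Of 10 cadherin-catenin genes tested, 10 fell in Hyp against LPS and 0 rose, with a median log2 difference of -0.55, where 37.8% of all genes fell. With M2-Exo 9 of 10 fell (median -0.59, against 36.5% of all genes). Nectin3, an adhesion receptor next to cadherin junctions, fell from 186 ± 7.47 to 79.4 ± 2.55 CPM (SD, n = 3, adjusted p = 1.14e-07). The catenin p120 (Ctnnd1), which holds cadherins at the membrane, fell from 410 ± 3.42 to 224 ± 5.33 CPM, and the neural alpha-catenin Ctnna2 fell from 9.01 ± 0.714 to 5.23 ± 0.492 CPM.

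The mesenchymal genes were mostly lower as well. Of 23 tested, 18 fell and 1 rose in Hyp against LPS (median -0.57), and 18 fell and 1 rose with M2-Exo (median -0.78). Of all genes 37.8% fell and 38% rose without M2-Exo, and 36.5% fell and 37.1% rose with it. Pdgfra, a growth factor receptor of mesenchymal cells, fell from 407, 393 and 427 reads to 22, 21 and 30 (21.7-fold). Pdgfrb fell 7.4-fold and the muscle-type tropomyosin Tpm2 fell 3.47-fold. Only the actin-binding Tagln rose, from 6, 12 and 8 reads to 22, 20 and 25. Of the 8 fibroblast and smooth muscle genes tested, 4 fell and 2 rose, both without and with M2-Exo, and the medians were -0.43 and 0.054. Decorin (Dcn) fell from 790 ± 11.4 to 332 ± 13.7 CPM, while Myh11 rose from 3, 10 and 2 reads to 30, 27 and 29. Most genes of this list, among them Dcn, Pdgfra, Pdgfrb and Tagln, are also in the mesenchymal list, so the counts are not separate.

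Of 10 other transcription factors linked to EMT, 5 rose and 4 fell without M2-Exo and 4 rose and 4 fell with it (medians -0.043 and -0.15). These shares are near those of all genes, of which 38% rose and 37.8% fell without M2-Exo and 37.1% and 36.5% with it. Sox9, a regulator of distal lung progenitors, rose 5.56-fold, Klf8 rose 2.51-fold and Foxc1 rose 2.89-fold. Sox4 fell from 368 ± 7.99 to 100 ± 3.89 CPM, and Tcf3 and Foxq1 fell 1.99-fold and 1.94-fold. Snai3, also in this list, had the order of Snai2 at few reads. It had 0 to 1 reads a library in LPS, 0 in LPS + M2-Exo, 7 to 10 in Hyp and 7 to 9 in Hyp + M2-Exo.

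The epithelial list did not move one way. Of 19 genes tested, 6 rose and 10 fell without M2-Exo (median -0.16), and 6 rose and 8 fell with it (median 0.037), where 38% of all genes rose and 37.8% fell without M2-Exo and 37.1% rose and 36.5% fell with it. Grhl2, a factor that maintains epithelial junction genes, including Cdh1, had 4, 0 and 3 reads in LPS and 75, 82 and 82 in Hyp, and 0, 0 and 2 against 74, 42 and 75 with M2-Exo. It was thus higher where Cdh1 was lower. Grhl1 rose 5.32-fold. In the other direction the laminin chain Lama3 had 41, 42 and 45 reads in LPS and 3, 3 and 4 in Hyp, the tight junction claudin Cldn3 fell 2.86-fold and Elf3, an epithelial Ets factor, fell 3.16-fold.

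Among other keratins 3 of 6 tested rose and 1 fell without M2-Exo (median 0.69), and 3 of 5 rose and 2 fell with it (median 0.36). Of all genes 38% rose and 37.8% fell without M2-Exo, and 37.1% and 36.5% with it. Besides Krt19, Krt15 had 1, 3 and 0 reads in LPS and 14, 18 and 17 in Hyp, and Krt10 rose 1.97-fold. Krt7 fell from 7.64 ± 0.471 to 1.20 ± 0.452 CPM.

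The transitional-state list had the most genes called higher in hyperoxia, and it was also the list with the most genes tested. Of 27 tested, 16 rose and 10 fell, both without and with M2-Exo, where 38% and 37.1% of all genes rose. The medians were 0.55 and 0.36. Without M2-Exo the medians of the other keratins (0.69) and the endothelial genes (0.63) were higher, and with it that of the endothelial genes (1.4). The cell cycle inhibitor p21 (Cdkn1a) rose from 464, 485 and 486 reads to 4624, 4601 and 4891, or 7.57-fold (adjusted p = 8.02e-09). The EGF receptor ligand amphiregulin (Areg) rose 5-fold and the AP-1 factor Fosl1 rose 4.84-fold. The cell cycle inhibitors Cdkn2b and Cdkn2a fell 3.66-fold and 2.34-fold, and Krt7 belongs to this list too. Cldn4, a marker often used with Krt8 for this state, had at most 4 reads in any library.

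**Figure D4:**
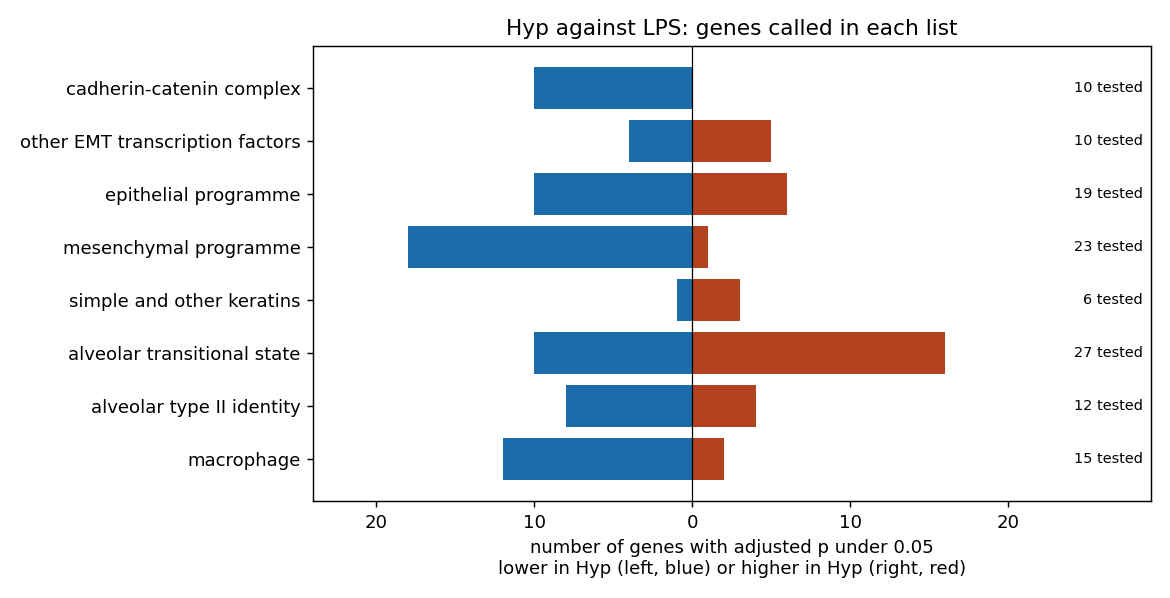
Number of genes in 8 of the lists with an adjusted p under 0.05 in Hyp against LPS, lower in Hyp to the left and higher to the right, with the number tested at the right edge. All 10 tested cadherin-catenin genes and 18 of 23 mesenchymal genes are on the left, and 16 of 27 transitional-state genes are on the right.

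Markers of cell identity differed between the injuries as well, in a comparison where 38% of all genes rose and 37.8% fell without M2-Exo and 37.1% rose and 36.5% fell with it. Of 12 AT II genes tested, 4 rose and 8 fell, both without and with M2-Exo (medians -0.71 and -0.66). The lung lineage factor Nkx2-1 fell from 172 ± 1.48 to 39.4 ± 2.06 CPM (4.36-fold), while Cebpa rose 4.22-fold and surfactant protein B (Sftpb) rose 3.08-fold. Of 10 alveolar type I genes, 2 rose and 5 fell without M2-Exo and 2 rose and 7 fell with it (medians -0.66 and -1.3). Without M2-Exo, Rtkn2 was 4.07-fold, Hopx 3.04-fold and Pdpn 2.63-fold lower, while Clic5 was 1.67-fold and Vegfa 1.17-fold higher. Of 15 macrophage genes tested, 2 rose and 12 fell in both comparisons (medians -1.4 and -1.6). Adgre1, which encodes the macrophage antigen F4/80, fell from 77.3 ± 5.04 to 12.8 ± 1.83 CPM and Fcer1g fell 6.53-fold. Marco had 57, 72 and 80 reads in LPS and 0, 0 and 1 in Hyp. Itgax rose from 0, 3 and 0 reads to 13, 22 and 30, and Mertk rose 3.73-fold. Of 4 endothelial genes tested, 2 rose and 2 fell in both comparisons (medians 0.63 and 1.4). Vim and Zeb2 are also expressed by macrophages, and the part of the macrophage genes in the differences of the 10 genes was not tested.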

How the data were processed

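Poly(A) RNA libraries of the 12 samples were sequenced on an Illumina NovaSeq instrument. The submitters' processing notes name HISAT2 2.0.4, StringTie 1.3.0, edgeR and GRCm38, and the counting program is not given in the sources used here. The authors deposited raw read counts per gene and FPKM per gene in 1 table. For RNA extraction the methods name Trizol and the labels a column kit.

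The counts were tested with edgeR 4.0.16 (quasi-likelihood F test, TMM scaling, filterByExpr, Benjamini-Hochberg over all genes tested, adjusted p under 0.05). Each comparison was fitted on its 6 libraries, and the difference of the M2-Exo effects on all 12. SE is the size of the log2 fold change divided by the square root of F. CPM used TMM factors over all 12 libraries. Motifs were searched by letters, and near copies with blastn 2.17.0 against GENCODE M21 transcripts. The tests were checked on simulated counts. Total counts per library ran from 16021833 to 24074616, and the floor of 3 reads covers counting error only. Alternatives were DESeq2 1.42.0, other scaling, other filters, a replicate block, 1 fit of all 12 libraries and leaving out each library.

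The genes and lists were chosen with earlier results of these data known. Named from each list were up to 3 genes that rose and 3 that fell, by size of change.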

Additional observations from a re-analysis of the deposited data

How the results depend on the processing

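Of the alternatives for the 10 genes without Krt18, 539 kept the direction and the side of the threshold, 33 lost the call and 32 turned the direction. Cdh1, Vim, Snai2, Zeb1 and Zeb2 kept their calls in Hyp against LPS in every alternative run. In that comparison 5 of the 10 genes were called with scaling by library size alone, where Cdh2, Snai1, Epcam and Krt8 lost their calls, and 6 to 7 were called when 1 library was left out. Scaling by library size alone turned Zeb2 to 0.021 and Krt8 to 0.016 on the log2 scale in Hyp + M2-Exo against LPS + M2-Exo. The cause was not tested.

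The calls over all genes for M2-Exo were few and moved with the setting. In hyperoxia 14 genes became 37 with DESeq2, 8 with the replicate block and 2 in 1 fit of all 12 libraries, and 12 to 21 without 1 library. In LPS 25 became 130, 6 and 12, and 21 to 39 without 1 library, the highest without LPS replicate 1. For the difference of the effects 5 became 70 with DESeq2, 3 with the block and 13 with no filter, and 4 to 34 without 1 library, the highest without Hyp + M2-Exo replicate 1. None of the 10 genes was called for M2-Exo in any of them.

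All turns for M2-Exo were in genes that missed the threshold. In hyperoxia Snai1 turned to -0.001 with no filter and -0.017 with the replicate block. Without 1 library, log2 differences in hyperoxia ran from -0.222 to 0.01 for Cdh1, -0.099 to 0.134 for Vim, -0.241 to 0.123 for Snai1, -0.447 to 0.036 for Snai2, -0.111 to 0.01 for Zeb1 and -0.012 to 0.669 for Epcam. In LPS they ran from -0.021 to 0.263 for Snai1 and -0.162 to 0.311 for Epcam. For the difference of the effects they ran from -0.147 to 0.083 for Vim, -0.324 to 0.046 for Snai1, -1.547 to 0.245 for Snai2 and -0.095 to 0.587 for Epcam.

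Libraries of the same number showed no shared deviation, with correlations of their deviations between -0.033 and 0.051. With few libraries a group this cannot show whether the samples were paired, and the labels do not say. Depth limits Krt18, Epcam and Snai2, whose reads in a library reached 4, 21 and 33 at most.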
